A study of Mus musculus with 10 samples.

Results

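The SLC25 proteins are the carriers that move metabolites across the inner mitochondrial membrane, and this account follows their transcripts in mouse liver. Members were all genes whose symbol is Slc25a followed by a number, other than Slc25a20, with a transcript cluster assigned to that symbol alone. This gave 45 genes of 22180 named genes, each with 1 cluster. They were grouped by the substrate of the carrier into 6 classes, from textbook knowledge. Relatives of the family with other symbols, such as the uncoupling proteins, are not members. Although the family is mitochondrial, Slc25a17 encodes a peroxisomal membrane protein and Slc25a46 a protein of the outer mitochondrial membrane.

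Livers of fasted male mice were measured on 10 whole-transcript arrays, 1 per sample, about 2 weeks after an adeno-associated virus (AAV) that carried either FST288 or GFP behind the TBG promoter. TBG is the promoter of thyroxine-binding globulin and is active in hepatocytes, so the cargo is made in these cells. FST288 encodes a form of follistatin, which is secreted and neutralises activins and related ligands. GFP, a fluorescent protein, is the control. The 4 groups were LTKO mice with FST288 (LTKO FST288, n = 2), LTKO mice with GFP (LTKO GFP, n = 2), wild-type mice fed high-fat diet (HFD) that received FST288 (HFD FST288, n = 3) and wild-type mice on that diet that received GFP (HFD GFP, n = 3). All groups share the fast and an AAV. LTKO is not expanded in the labels. By common use it stands for a liver triple knockout of Irs1 and Irs2, adaptors of the insulin receptor, and Foxo1, a transcription factor that insulin shuts off. The labels give neither the diet of the LTKO mice nor an age, so genotype and diet cannot be told apart in a comparison of LTKO with HFD livers. Nor is it stated whether every sample came from its own animal, and the p-values then measure the spread between these samples, which may be technical.

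A mitochondrion makes ATP, ketone bodies, glucose precursors, urea and haem from molecules that must cross its inner membrane, which is closed to most of them. Each SLC25 carrier binds its substrate on one side of the membrane and releases it on the other, usually in exchange for another molecule. In liver the family links fatty acid oxidation, gluconeogenesis and urea synthesis in the matrix to the cytosol. It carries ATP and phosphate, cofactors such as coenzyme A and NAD, amino acids, carboxylic acids, iron and glutathione.

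Values are log2 levels normalised by RMA, so a difference of 1 is a doubling, and ± is the SD for group means and the standard error of the fit for changes. Calls were made with limma's moderated test at a threshold of 0.05 after Benjamini-Hochberg adjustment over the 22180 genes. The cargo and the targeted genes were read first. Fst was higher with FST288 by 1.45 ± 0.23 in LTKO livers and by 1.08 ± 0.19 in HFD livers, and Irs1, Irs2 and Foxo1 differed by -1.77 ± 0.15, -1.21 ± 0.24 and -1.68 ± 0.13 between LTKO GFP and HFD GFP livers. All of these were called. Fst was uneven among HFD FST288 livers, at 6.804, 5.785 and 6.454 in replicates 1, 2 and 3, against 5.221 to 5.341 in HFD GFP livers. Hepatocyte markers were high on all arrays, with list medians of 11.87 to 12.02 in LTKO FST288, 11.87 to 11.96 in LTKO GFP, 12.13 to 12.16 in HFD FST288 and 12.18 to 12.34 in HFD GFP livers. They also differed between backgrounds: of 8 markers, Apoa1, Apoa2, Tat and Cps1 were called lower and Hnf4a higher in LTKO GFP against HFD GFP livers (list median -0.21), and Tat and Cps1 lower with FST288 (list median -0.00). For FST288 against GFP, Ttr and Apoa1 were called lower in HFD livers (list median -0.05), where 0.996% of all named genes were called. No hepatocyte marker was called for FST288 in LTKO livers. Their part in the carrier changes was not tested. Several arrays stand apart. HFD FST288 replicates 2 and 3 carried pancreatic acinar transcripts, with a median of 8 markers at 8.44 and 7.40, against 2.24 to 2.54 on the other 8 arrays. LTKO FST288 replicate 2 had the highest median of 7 Kupffer cell markers, 7.59, against 5.56 to 6.19 elsewhere, and of 4 lymphocyte markers, 3.35, against 2.55 to 2.86 elsewhere. With FST288, 5 of 7 Kupffer cell markers were called higher in LTKO than in HFD livers. So were 2 of 4 lymphocyte markers (Cd3e and Cd3g) and 2 of 6 stellate cell markers (Dcn and Hgf). Other markers went the other way. Of 5 sinusoidal endothelial markers, Lyve1 was called lower in LTKO livers with either vector, and the stellate cell marker Lrat was called lower with GFP. The part of these markers in the carrier changes was not tested. Arrays give no counts, so their number limits the precision. Of the 45 members, 11 had a mean below every array's median of named genes (3.10 to 3.17).

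Across the family, many carriers differed between LTKO and HFD livers and few between FST288 and GFP. In LTKO GFP against HFD GFP livers, 11 of 45 carriers rose and 6 fell, where 6.69% and 6.4% of all named genes rose and fell (13.1% in either direction). With FST288 in both backgrounds, 6 rose and 6 fell in LTKO livers, where 5.05% and 5.29% of all genes did (10.3% in either direction). FST288 raised 3 carriers and lowered none in HFD livers, against 0.577% of all genes higher and 0.419% lower (0.996% in either direction). In LTKO livers FST288 gave no limma call in any of the 45, where 0.167% of all genes were called; 10 members had an unadjusted p under 0.05. The FST288 effect itself differed between backgrounds in 1 member, against 0.216% of all genes. These shares of all named genes are also the background for the counts by class and by related list below.

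The family did not lean one way. The median change of the 45 carriers was 0.04 in LTKO against HFD livers with GFP and -0.07 with FST288, where that of all named genes was 0.01 and 0.00. With FST288 against GFP it was -0.05 in LTKO livers and 0.03 in HFD livers, where that of all named genes was -0.02 and -0.00. With only the 11090 genes of above-median level in the fit, 16 of 34 bright carriers were called in LTKO GFP against HFD GFP livers, beside 28.2% of all those genes. With FST288 the counts were 18 of 34 carriers and 23.5% of those genes. In a whole liver, fewer cells of a type and less RNA per cell cannot be told apart. The counts depend on single arrays. The 17 calls with GFP became 8 without LTKO GFP replicate 1 and 10 without replicate 2, the 12 with FST288 became 7 without HFD FST288 replicate 3 or LTKO FST288 replicate 2 and 8 without HFD FST288 replicate 2, and the 3 in HFD livers became 1 without any of the 6 HFD arrays. The single difference between backgrounds was lost without HFD FST288 replicate 3. With both acinar-high arrays left out, several of the 12 calls with FST288 were lost. That fit leaves 1 array in the HFD FST288 group, and its values stand beside each affected call below. In LTKO livers Slc25a23 was called without LTKO GFP replicate 1 and Slc25a25 without LTKO FST288 replicate 1. Each of these fits leaves 1 array in the affected group.

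**Figure D1:**
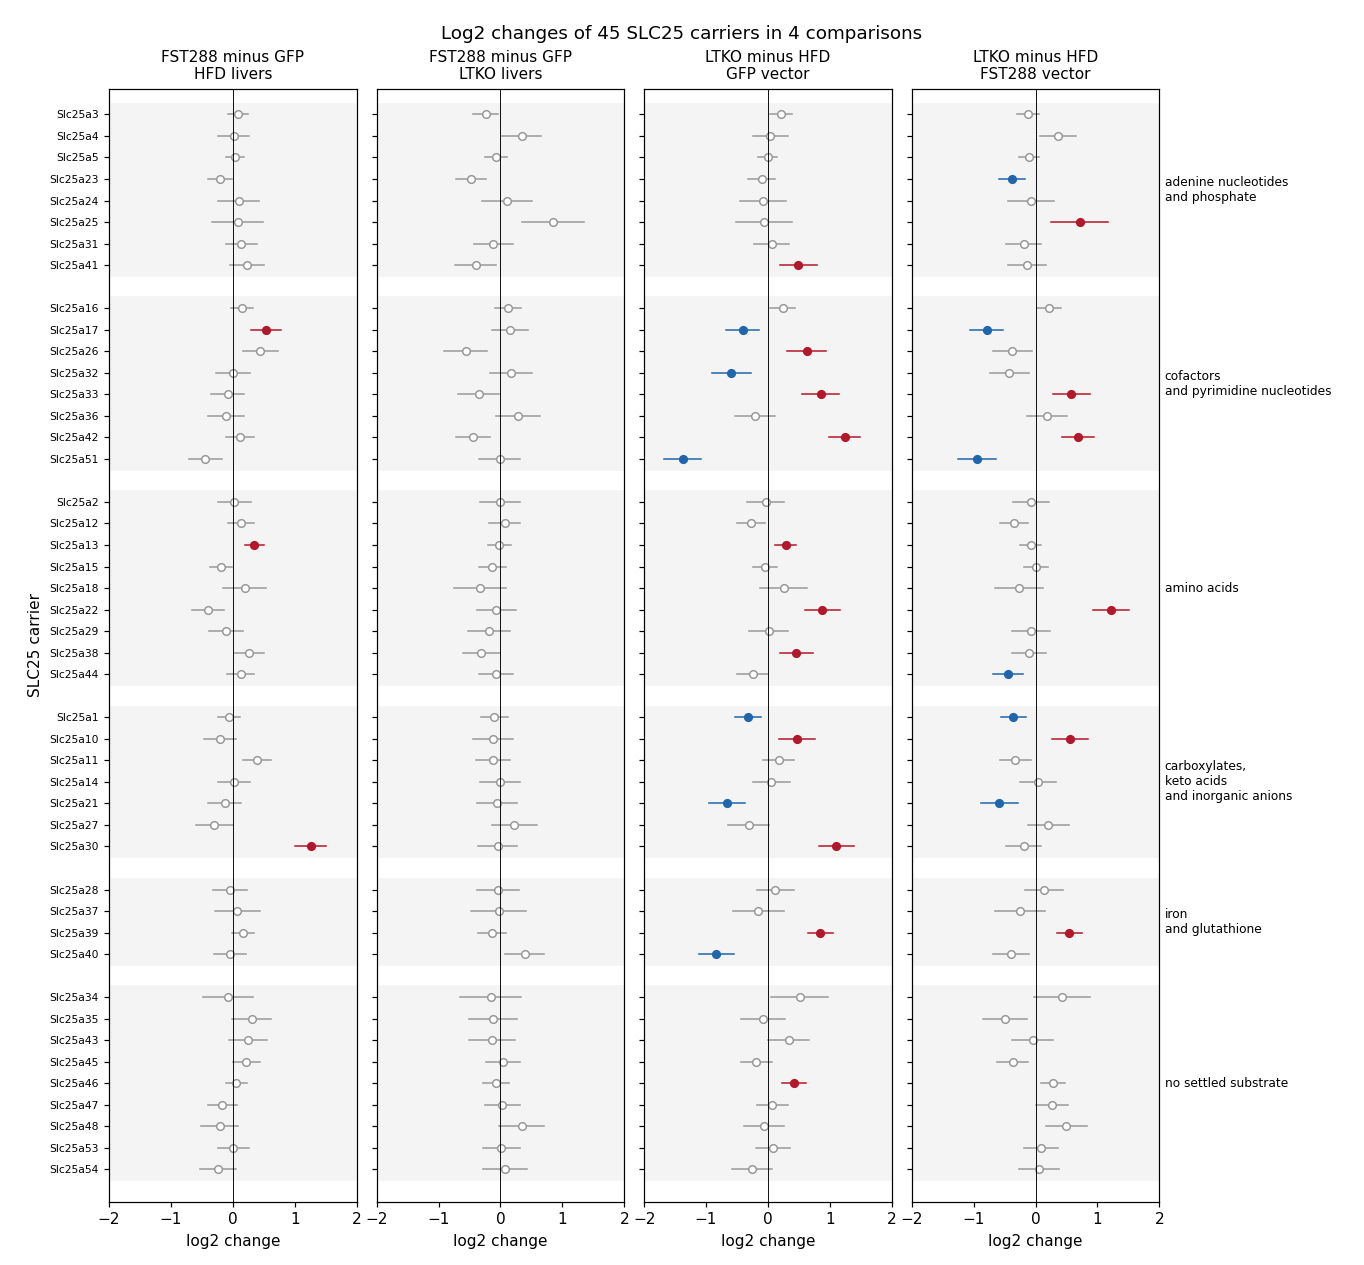
Log2 change of each of the 45 carriers (rows, grouped by substrate class) in 4 comparisons (columns), with points for the estimates and lines for their 95% confidence intervals. Red points rose and blue points fell at an adjusted p under 0.05, and open grey points were not called. The called points lie mostly in the 2 columns of LTKO against HFD livers.

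Slc25a30 had the largest called response to follistatin of the 45 carriers. Its product, also known as kidney mitochondrial carrier protein, belongs to the branch of the uncoupling proteins, and the human protein carries sulfate, thiosulfate and other small anions. Its level was 7.38 and 7.40 in LTKO FST288 livers, 7.52 and 7.35 in LTKO GFP livers, 7.76, 7.36 and 7.63 in HFD FST288 livers, and 6.46, 6.13 and 6.40 in HFD GFP livers. The HFD GFP arrays stood alone at the low end, and the arrays of the other 3 groups lay together between 7.35 and 7.76. FST288 raised it 2.38-fold in HFD livers (log2 change 1.25 ± 0.12, adjusted p = 0.000256), and it was 2.15-fold higher in LTKO GFP livers than with GFP in HFD livers (1.11 ± 0.13, adjusted p = 7.52e-05). In LTKO livers, where the GFP arrays lay within or just below the range of the HFD FST288 arrays, the change with FST288 was -0.05 ± 0.14 with a 95% interval of -0.36 to 0.27 (adjusted p = 0.954). The tested difference of the FST288 effects, LTKO minus HFD, was -1.30 ± 0.19, adjusted p = 0.019. That last call was lost on omission of replicate 3 of HFD FST288 (log2 change -1.28, adjusted p = 0.0784). HFD FST288 replicate 1, the array of its group without acinar transcripts, had the highest value of all, 7.76. It also had the highest Fst level of its group. With replicates 2 and 3 left out, replicate 1 alone stood for HFD FST288. The rise in HFD livers was then 1.43. The difference between backgrounds was -1.47 and was no longer called. The parts of acinar content and of Fst level in these values were not tested.

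The promoter of Slc25a30 is shown because of that response. It is taken from RefSeq on GRCm38.p6, minus strand, chr14:75786988-75787287, and runs 5′ to 3′ over 250 bases before the transcription start and 50 after it.
Slc25a30: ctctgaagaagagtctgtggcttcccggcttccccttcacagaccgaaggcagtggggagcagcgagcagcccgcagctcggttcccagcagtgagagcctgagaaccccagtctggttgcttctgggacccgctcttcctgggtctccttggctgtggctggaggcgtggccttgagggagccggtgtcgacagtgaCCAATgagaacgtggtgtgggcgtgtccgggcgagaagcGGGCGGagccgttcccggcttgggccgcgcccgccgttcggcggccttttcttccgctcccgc
Capitals mark a CCAAT box (CCAAT) at positions -52 to -48 and a GC box (GGGCGG) at positions -13 to -8, counted from the start, where -1 is the base before it. Of the 32851 promoters in the table, 37.4% hold a CCAAT box and 35.7% a GC box on either strand. The FoxO element GTAAACA, found in 3.65% of promoters, the E-box CACGTG (7.15%), the cyclic AMP response element TGACGTCA (1.79%), the NRF1 element (4.6%) and the oestrogen-related receptor element TCAAGGTCA (0.423%) have no match within this window on either strand.

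Other carriers of carboxylates, keto acids and anions were called between backgrounds and, Slc25a30 aside, not for the vector. Of the 7 measured members of this class, 2 rose and 2 fell in LTKO GFP against HFD GFP livers, and with FST288 1 rose and 2 fell. Slc25a1, the citrate carrier that supplies the cytosol with carbon for fatty acid synthesis, had levels of 8.40 and 8.22 in LTKO FST288 livers, 8.41 and 8.41 in LTKO GFP livers, 8.73, 8.56 and 8.73 in HFD FST288 livers, and 8.62, 8.83 and 8.75 in HFD GFP livers. Every LTKO array lay below every HFD array. The change was -0.36 ± 0.09, adjusted p = 0.024 with FST288 and -0.32 ± 0.09, adjusted p = 0.0365 with GFP. These calls were lost with FST288 on omission of replicate 1 or 3 of HFD FST288 or replicate 2 of LTKO FST288 (log2 change -0.33 to -0.28, adjusted p from 0.0791 to 0.207) and with GFP on omission of replicate 2 or 3 of HFD GFP, replicate 3 of HFD FST288 or replicate 1 or 2 of LTKO GFP (log2 change -0.32 to -0.27, adjusted p from 0.0538 to 0.13). With both acinar-high arrays left out the changes were -0.42, adjusted p = 0.133 with FST288 and -0.32, adjusted p = 0.0633 with GFP. Slc25a10, the dicarboxylate carrier that exchanges malate or succinate for phosphate, went the other way at 6.61 and 6.63 in LTKO FST288 livers, 6.70 and 6.78 in LTKO GFP livers, 6.17, 5.83 and 6.21 in HFD FST288 livers, and 6.09, 6.28 and 6.46 in HFD GFP livers. It was higher in LTKO livers by 0.55 ± 0.14, adjusted p = 0.0182 with FST288 and by 0.47 ± 0.14, adjusted p = 0.0377 with GFP. Its calls were lost with FST288 on omission of replicate 2 of HFD FST288 or replicate 1 or 2 of LTKO FST288 (log2 change 0.43 to 0.57, adjusted p from 0.0703 to 0.0994) and with GFP on omission of replicate 1 or 2 of HFD GFP or replicate 1 or 2 of LTKO GFP (log2 change 0.38 to 0.51, adjusted p from 0.0819 to 0.174). Without both acinar-high arrays the change with FST288 was 0.45, adjusted p = 0.222.

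Slc25a21, the oxodicarboxylate carrier that serves lysine and tryptophan breakdown, had 5.51 and 5.59 in LTKO FST288 livers, 5.48 and 5.73 in LTKO GFP livers, 6.17, 6.16 and 6.07 in HFD FST288 livers, and 6.36, 6.001 and 6.43 in HFD GFP livers. It fell in LTKO livers with FST288 (-0.58 ± 0.14, adjusted p = 0.0142) and with GFP (-0.66 ± 0.14, adjusted p = 0.00547). The calls were lost with FST288 on omission of replicate 1 or 2 of LTKO FST288 (log2 change -0.62 to -0.54, adjusted p from 0.0542 to 0.0894) and with GFP on omission of replicate 1 of LTKO GFP (log2 change -0.54, adjusted p = 0.0719). Without both acinar-high arrays the Slc25a21 change with FST288 was -0.62, adjusted p = 0.152. The malate and oxoglutarate carrier Slc25a11 averaged 6.89 ± 0.00 in LTKO FST288, 7.004 ± 0.06 in LTKO GFP, 7.22 ± 0.04 in HFD FST288 and 6.83 ± 0.21 in HFD GFP livers, and was not called (FST288 in HFD livers 0.38 ± 0.10, adjusted p = 0.122). The uncoupling-like Slc25a14 averaged 2.58 ± 0.00 in LTKO FST288, 2.58 ± 0.08 in LTKO GFP, 2.54 ± 0.12 in HFD FST288 and 2.53 ± 0.10 in HFD GFP livers, and Slc25a27 averaged 3.42 ± 0.04 in LTKO FST288, 3.20 ± 0.04 in LTKO GFP, 3.21 ± 0.09 in HFD FST288 and 3.51 ± 0.22 in HFD GFP livers. Neither was called in any comparison. Among 10 measured genes of the malate-aspartate and citrate shuttles, Acly, which splits exported citrate, changed in LTKO livers by -2.12 ± 0.13, adjusted p = 2.04e-07 with FST288 and -2.50 ± 0.13, adjusted p = 3.83e-08 with GFP. Me1, the cytosolic malic enzyme, changed by -1.71 ± 0.14, adjusted p = 3.12e-06 with FST288 and -1.37 ± 0.14, adjusted p = 2.36e-05 with GFP. Gpd1, the cytosolic glycerol phosphate dehydrogenase, was the only one of the 10 that rose, and Mdh1, cytosolic malate dehydrogenase, fell with FST288 (-0.40 ± 0.07, adjusted p = 0.00224). The shuttle list thus gave 1 rise and 3 falls with FST288 and 1 rise and 2 falls with GFP. Of 7 genes of sulfur metabolism, 3 rose in LTKO livers with FST288 (Ethe1, Cth and Cbs) and 4 with GFP (these and Tst), and none fell. Of all named genes, 5.05% rose with FST288 and 6.69% with GFP. Cth and Cbs are transsulfuration enzymes that make cysteine, and Tst uses thiosulfate. Ethe1, a persulfide dioxygenase, changed by 0.51 ± 0.12, adjusted p = 0.0163 with FST288 and 0.90 ± 0.12, adjusted p = 0.000242 with GFP. None of the 7 was called for FST288 in either background.

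Carriers of cofactors and pyrimidine nucleotides held the most calls of any class in both LTKO comparisons, where classes have 4 to 9 members. Of 8 measured members, 6 (75%) were called in LTKO GFP against HFD GFP livers, 3 up and 3 down, beside 13.1% of all named genes. With FST288 in both backgrounds, 4 (50%) were called, 2 up and 2 down, beside 10.3%. Among genes of above-median level alone, 28.2% were called with GFP and 23.5% with FST288. Slc25a42 brings coenzyme A into the matrix, where fatty acid oxidation and the citric acid cycle need it. Its level was 7.85 and 8.03 in LTKO FST288 livers, 8.28 and 8.49 in LTKO GFP livers, 7.18, 7.17 and 7.41 in HFD FST288 livers, and 7.31, 7.07 and 7.06 in HFD GFP livers. All LTKO arrays lay above all HFD arrays, and it was 1.61-fold higher with FST288 (0.69 ± 0.12, adjusted p = 0.0015) and 2.36-fold higher with GFP (1.24 ± 0.12, adjusted p = 1.05e-05). The NAD carrier Slc25a51 moved the opposite way, at 5.27 and 5.63 in LTKO FST288 livers, 5.51 and 5.41 in LTKO GFP livers, 6.27, 6.45 and 6.47 in HFD FST288 livers, and 6.65, 7.03 and 6.84 in HFD GFP livers. Again the LTKO and HFD arrays did not overlap, and the LTKO livers were 1.92-fold lower with FST288 (-0.94 ± 0.14, adjusted p = 0.000493) and 2.60-fold lower with GFP (-1.38 ± 0.14, adjusted p = 1.86e-05). All 4 calls stood whichever of the 10 arrays was omitted.

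Slc25a42 had the largest rise of the family between LTKO GFP and HFD GFP livers, and its promoter is shown to set beside that of Slc25a30. It comes from RefSeq on GRCm38.p6, minus strand, chr8:70212232-70212531, with the same 250 bases before the start and 50 after it.
Slc25a42: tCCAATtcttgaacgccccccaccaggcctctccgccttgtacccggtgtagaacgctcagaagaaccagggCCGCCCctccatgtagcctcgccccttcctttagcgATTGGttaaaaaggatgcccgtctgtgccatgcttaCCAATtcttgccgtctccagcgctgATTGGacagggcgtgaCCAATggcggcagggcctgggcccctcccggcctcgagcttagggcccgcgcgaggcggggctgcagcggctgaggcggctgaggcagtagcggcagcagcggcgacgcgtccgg
Capitals mark 5 CCAAT boxes (CCAAT, or ATTGG on the other strand) and 1 GC box (CCGCCC, the reverse complement of GGGCGG). The CCAAT box nearest to the start lies at positions -65 to -61. As for Slc25a30, none of the FoxO, E-box, cyclic AMP response, NRF1 and oestrogen-related receptor letters above occur in this window. No Slc25a51 entry was used.

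The nucleotide carrier Slc25a33 imports pyrimidine nucleotides for mitochondrial DNA and RNA, and stood at 6.02 and 6.30 in LTKO FST288 livers, 6.52 and 6.50 in LTKO GFP livers, 5.51, 5.82 and 5.41 in HFD FST288 livers, and 5.57, 5.69 and 5.74 in HFD GFP livers. It was higher in LTKO livers by 0.58 ± 0.14, adjusted p = 0.015 with FST288 and by 0.85 ± 0.14, adjusted p = 0.000998 with GFP; the first of these calls was lost on omission of replicate 3 of HFD FST288 or replicate 2 of LTKO FST288 (log2 change 0.44 to 0.49, adjusted p from 0.0669 to 0.173), and without both acinar-high arrays it was 0.65, adjusted p = 0.0629. Its paralog Slc25a36 averaged 4.18 ± 0.15 in LTKO FST288, 3.89 ± 0.28 in LTKO GFP, 3.99 ± 0.05 in HFD FST288 and 4.10 ± 0.08 in HFD GFP livers and was not called (LTKO over HFD 0.18 ± 0.15, adjusted p = 0.565 with FST288 and -0.21 ± 0.15, adjusted p = 0.427 with GFP). Slc25a32, which carries folate and FAD, had 6.24 and 6.80 in LTKO FST288 livers, 6.32 and 6.38 in LTKO GFP livers, 7.02, 6.88 and 6.92 in HFD FST288 livers, and 6.91, 6.84 and 7.07 in HFD GFP livers. It was lower in LTKO than HFD livers with GFP (-0.59 ± 0.14, adjusted p = 0.0139), a call lost on omission of replicate 3 of HFD GFP or replicate 1 or 2 of LTKO GFP (log2 change -0.62 to -0.53, adjusted p from 0.0537 to 0.0895), and with FST288 the change was -0.42 ± 0.14, adjusted p = 0.0874. LTKO FST288 replicate 2 lay apart at 6.80, and without it the change with FST288 was -0.70, where replicate 1 alone stood for LTKO FST288. Slc25a26 imports S-adenosylmethionine, the methyl donor, and was at 3.54 and 3.61 in LTKO FST288 livers, 4.23 and 4.05 in LTKO GFP livers, 3.81, 3.93 and 4.11 in HFD FST288 livers, and 3.44, 3.44 and 3.66 in HFD GFP livers. It rose in LTKO GFP against HFD GFP livers (0.63 ± 0.15, adjusted p = 0.0114), lost on omission of replicate 1 of LTKO GFP (log2 change 0.53, adjusted p = 0.109). Its FST288 effect was -0.56 ± 0.16 in LTKO livers and 0.44 ± 0.13 in HFD livers, neither called (adjusted p = 0.258 and 0.16), and their tested difference was -0.999 ± 0.21, adjusted p = 0.082.

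Slc25a17, the peroxisomal carrier of coenzyme A, FAD and NAD, was called for both the vector and the background. Its level was 7.52 and 7.07 in LTKO FST288 livers, 7.16 and 7.14 in LTKO GFP livers, 8.12, 8.15 and 7.99 in HFD FST288 livers, and 7.65, 7.44 and 7.56 in HFD GFP livers. FST288 raised it 1.45-fold in HFD livers (0.53 ± 0.11, adjusted p = 0.0366), with no overlap of the groups, and in LTKO livers the change was 0.15 ± 0.14, adjusted p = 0.782. The tested difference of these effects, LTKO minus HFD, was not called (-0.39 ± 0.17, adjusted p = 0.386). LTKO livers were lower with FST288 (-0.79 ± 0.12, adjusted p = 0.000759), a call kept without any 1 array, and with GFP (-0.40 ± 0.12, adjusted p = 0.0465). For the vector in HFD mice the call was lost on omission of replicate 1, 2 or 3 of HFD GFP or replicate 1, 2 or 3 of HFD FST288 (log2 change 0.48 to 0.59, adjusted p from 0.0709 to 0.172). That in LTKO GFP livers was lost on omission of replicate 1 or 3 of HFD GFP, replicate 1, 2 or 3 of HFD FST288 or replicate 1 or 2 of LTKO GFP (log2 change -0.41 to -0.35, adjusted p from 0.0621 to 0.162). With HFD FST288 replicates 2 and 3 left out the rise in HFD livers was 0.57, adjusted p = 0.6, and the change in LTKO livers with GFP -0.40, adjusted p = 0.0881. Slc25a16, linked to coenzyme A in mitochondria, was not called (LTKO over HFD 0.22 ± 0.09, adjusted p = 0.183 with FST288 and 0.23 ± 0.09, adjusted p = 0.119 with GFP). Of 10 measured cofactor genes, Pank3, a kinase that starts coenzyme A synthesis, fell in LTKO livers with FST288 (-0.32 ± 0.10, adjusted p = 0.0486) and with GFP (-0.60 ± 0.10, adjusted p = 0.000857), and Coasy, which finishes it, rose with GFP (0.45 ± 0.13, adjusted p = 0.0302).

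Among amino acid carriers the glutamate carrier Slc25a22 stood out. Glutamate entry feeds ammonia release in the matrix. Its level was 7.92 and 7.93 in LTKO FST288 livers, 7.79 and 8.21 in LTKO GFP livers, 6.75, 6.67 and 6.71 in HFD FST288 livers, and 6.89, 7.23 and 7.23 in HFD GFP livers. LTKO arrays exceeded all HFD arrays, 2.32-fold with FST288 (1.22 ± 0.13, adjusted p = 3.55e-05) and 1.84-fold with GFP (0.88 ± 0.13, adjusted p = 0.000558), and both calls were kept without any 1 array. With FST288 in HFD livers all 3 arrays lay below the GFP arrays, and the change of -0.41 ± 0.12 was not called (adjusted p = 0.15). The other glutamate carrier, Slc25a18, averaged 2.32 ± 0.44 in LTKO FST288, 2.66 ± 0.05 in LTKO GFP, 2.59 ± 0.19 in HFD FST288 and 2.41 ± 0.03 in HFD GFP livers, below the array medians, and gave no call.

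Citrin, encoded by Slc25a13, exchanges mitochondrial aspartate for cytosolic glutamate and is the liver form of this carrier. It stood at 9.74 and 9.61 in LTKO FST288 livers, 9.64 and 9.75 in LTKO GFP livers, 9.74, 9.75 and 9.78 in HFD FST288 livers, and 9.31, 9.45 and 9.48 in HFD GFP livers. HFD GFP livers were lowest, as for Slc25a30, with no overlap. FST288 raised it 1.27-fold in HFD livers (0.34 ± 0.07, adjusted p = 0.0328), and LTKO GFP livers were 1.22-fold above HFD GFP livers (0.28 ± 0.08, adjusted p = 0.0279). In LTKO livers the FST288 change was -0.02 ± 0.09 (95% interval -0.21 to 0.16), and the difference from HFD livers was not called (-0.36 ± 0.11, adjusted p = 0.208). The call for FST288 was lost on omission of replicate 1, 2 or 3 of HFD GFP or replicate 1, 2 or 3 of HFD FST288 (log2 change 0.29 to 0.38, adjusted p from 0.0674 to 0.164), and that for LTKO on omission of replicate 1 or 2 of HFD GFP or replicate 2 of LTKO GFP (log2 change 0.23 to 0.30, adjusted p from 0.0507 to 0.176). Left without HFD FST288 replicates 2 and 3, the rise with FST288 was 0.33, adjusted p = 0.702, and that in LTKO GFP livers 0.28, adjusted p = 0.0701. Aralar, the Slc25a12 product and the form of heart and brain, averaged 6.05 ± 0.12 in LTKO FST288, 5.99 ± 0.03 in LTKO GFP, 6.39 ± 0.04 in HFD FST288 and 6.27 ± 0.09 in HFD GFP livers and was not called, with changes in LTKO livers of -0.34 ± 0.11, adjusted p = 0.0581 with FST288 and -0.28 ± 0.11, adjusted p = 0.108 with GFP.

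Slc25a38, which carries glycine for haem synthesis, was at 4.12 and 4.27 in LTKO FST288 livers, 4.49 and 4.53 in LTKO GFP livers, 4.36, 4.29 and 4.27 in HFD FST288 livers, and 4.06, 4.10 and 3.98 in HFD GFP livers. It rose in LTKO GFP against HFD GFP livers (0.46 ± 0.12, adjusted p = 0.026), a call lost on omission of replicate 1 or 3 of HFD GFP or replicate 1 or 2 of LTKO GFP (log2 change 0.43 to 0.48, adjusted p from 0.055 to 0.121). The acinar-high arrays left out, it was 0.46, adjusted p = 0.0541. With FST288 the change was -0.11 ± 0.12, adjusted p = 0.722. Slc25a44, a carrier of branched-chain amino acids, was at 6.26 and 6.05 in LTKO FST288 livers, 6.22 and 6.24 in LTKO GFP livers, 6.47, 6.66 and 6.67 in HFD FST288 livers, and 6.36, 6.57 and 6.50 in HFD GFP livers. It fell in LTKO livers with FST288 (-0.44 ± 0.11, adjusted p = 0.023), lost on omission of replicate 2 or 3 of HFD FST288 or replicate 2 of LTKO FST288 (log2 change -0.41 to -0.34, adjusted p from 0.0804 to 0.209), and with GFP the change was -0.25 ± 0.11, adjusted p = 0.196. With both acinar-high arrays left out the Slc25a44 change with FST288 was -0.31, adjusted p = 0.437. Of 9 genes of branched-chain and glycine breakdown, 4 rose in LTKO livers with FST288 and 5 with GFP, and none fell. The shares of all named genes that rose were 5.05% and 6.69%. Bckdhb, a subunit of the branched-chain keto acid dehydrogenase, changed by 1.13 ± 0.10, adjusted p = 3.44e-06 with FST288 and 1.04 ± 0.10, adjusted p = 7.90e-06 with GFP, and Gldc, of the glycine cleavage system, by 0.44 ± 0.12, adjusted p = 0.0344 with FST288 and 1.06 ± 0.12, adjusted p = 4.96e-05 with GFP. Gldc was also the one of these 9 called for FST288 in HFD livers (0.59 ± 0.11, adjusted p = 0.0186).

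The ornithine carriers were not called while urea cycle enzymes were. Slc25a15 brings ornithine into the matrix and takes citrulline out, a step of every turn of the urea cycle. It averaged 9.48 ± 0.07 in LTKO FST288, 9.61 ± 0.07 in LTKO GFP, 9.47 ± 0.14 in HFD FST288 and 9.67 ± 0.09 in HFD GFP livers, and its change in LTKO livers was 0.01 ± 0.09 with FST288 (95% interval -0.19 to 0.20) and -0.05 ± 0.09 with GFP (-0.25 to 0.14). Slc25a2 averaged 2.55 ± 0.12 in LTKO FST288, 2.56 ± 0.01 in LTKO GFP, 2.63 ± 0.05 in HFD FST288 and 2.60 ± 0.14 in HFD GFP livers, and Slc25a29 averaged 2.68 ± 0.21 in LTKO FST288, 2.87 ± 0.10 in LTKO GFP, 2.75 ± 0.03 in HFD FST288 and 2.86 ± 0.11 in HFD GFP livers, both below the array medians and without a call. Of 10 urea cycle and ornithine enzymes, Cps1, Otc, Ass1 and Asl fell in LTKO livers with either vector, among them Ass1, which joins citrulline to aspartate, with changes of -1.13 ± 0.16, adjusted p = 0.000343 with FST288 and -0.99 ± 0.16, adjusted p = 0.000894 with GFP. Oat, which breaks ornithine down in the matrix, rose by 1.71 ± 0.08, adjusted p = 2.36e-08 with FST288 and 0.82 ± 0.08, adjusted p = 1.79e-05 with GFP. FST288 lowered Oat in HFD livers (-0.75 ± 0.07, adjusted p = 0.000278), and no other gene of this list was called for the vector.

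The glutathione carriers of the family were called in opposite directions in LTKO GFP against HFD GFP livers. Slc25a39 imports glutathione, the main thiol of the matrix, and Slc25a40 is its paralog. Slc25a39 was at 8.65 and 8.48 in LTKO FST288 livers, 8.67 and 8.74 in LTKO GFP livers, 8.002, 8.09 and 7.96 in HFD FST288 livers, and 7.97, 7.85 and 7.76 in HFD GFP livers. It was 1.46-fold higher in LTKO than in HFD livers with FST288 (0.55 ± 0.09, adjusted p = 0.00143) and 1.79-fold higher with GFP (0.84 ± 0.09, adjusted p = 3.84e-05), without overlap of the groups. Slc25a40 was at 4.13 and 4.02 in LTKO FST288 livers, 3.64 and 3.72 in LTKO GFP livers, 4.50, 4.32 and 4.61 in HFD FST288 livers, and 4.50, 4.58 and 4.46 in HFD GFP livers. All LTKO arrays lay below all HFD arrays, 1.78-fold with GFP (-0.83 ± 0.13, adjusted p = 0.000892), and with FST288 the change of -0.40 ± 0.13 was not called (adjusted p = 0.0812). The 3 calls in this pair were kept without any 1 array. A difference between the paralogs was not itself tested.

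Genes of glutathione synthesis and reduction were also higher in LTKO livers. Of 10 measured genes of iron, haem and glutathione, 5 rose and 1 fell in LTKO livers with either vector. In either direction, 10.3% of all named genes were called with FST288 and 13.1% with GFP. Gclc, the catalytic subunit of the first step of glutathione synthesis, was higher by 1.14 ± 0.08, adjusted p = 4.79e-07 with FST288 and 1.51 ± 0.08, adjusted p = 3.36e-08 with GFP, and Gclm, Gss and Gsr were called higher too. Alas1, the rate-limiting enzyme of haem synthesis in liver, was the one that fell, with changes of -1.14 ± 0.29, adjusted p = 0.0201 with FST288 and -1.59 ± 0.29, adjusted p = 0.0021 with GFP. Cpox, another enzyme of haem synthesis, was called higher with either vector. Gclc was lower with FST288 in LTKO livers (-0.70 ± 0.09, adjusted p = 0.00534) and in HFD livers (-0.33 ± 0.07, adjusted p = 0.0438), where Gclm was lower as well. The mitoferrins, which import iron, gave no call: Slc25a28 averaged 5.97 ± 0.16 in LTKO FST288, 6.01 ± 0.36 in LTKO GFP, 5.84 ± 0.05 in HFD FST288 and 5.89 ± 0.02 in HFD GFP livers, and Slc25a37, the form of red cell precursors, 6.06 ± 0.18 in LTKO FST288, 6.09 ± 0.13 in LTKO GFP, 6.32 ± 0.27 in HFD FST288 and 6.25 ± 0.33 in HFD GFP livers. The 2 measured erythroid markers of 7 listed, Slc4a1 and Epb42, had medians of 2.63 to 2.88 in LTKO FST288, 2.37 to 2.49 in LTKO GFP, 2.45 to 2.52 in HFD FST288 and 2.39 to 2.44 in HFD GFP livers, under the array medians of named genes.

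**Figure D2:**
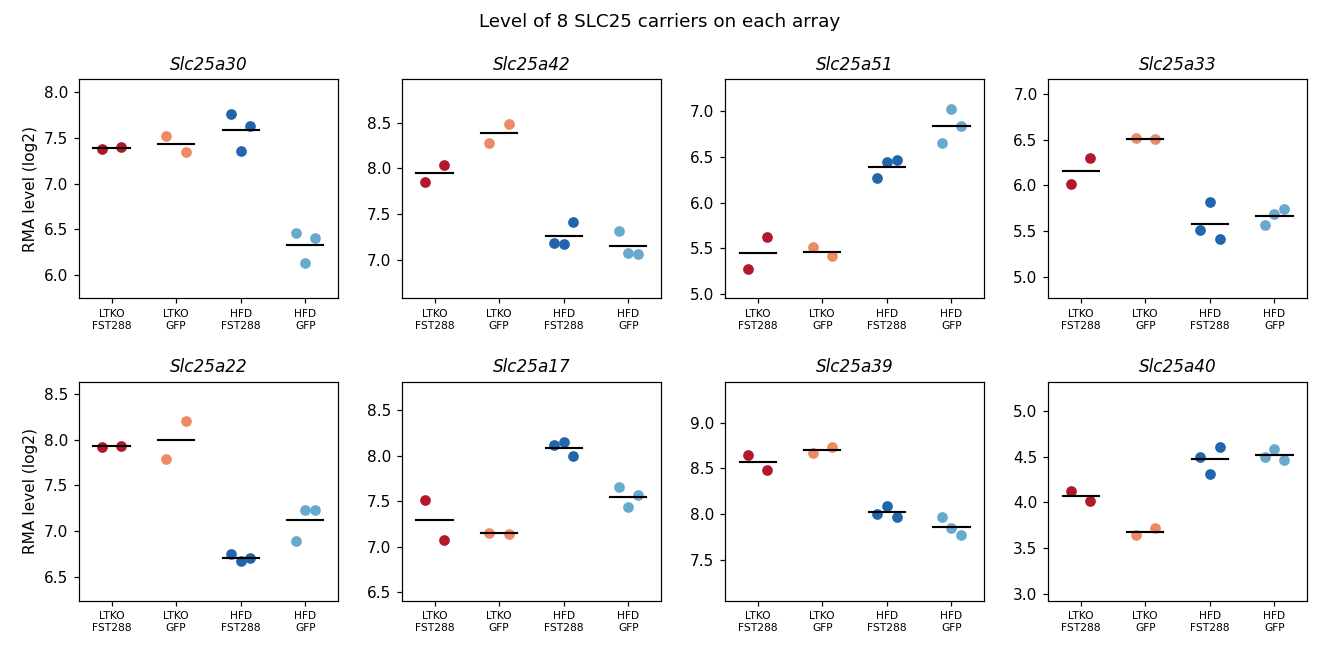
RMA level (log2) of 8 carriers on each of the 10 arrays, with points for arrays and bars for group means, from LTKO FST288 at the left to HFD GFP at the right. All panels span the same range, and levels are not comparable between panels. Slc25a30 is low in HFD GFP livers alone, whereas Slc25a42, Slc25a51, Slc25a33, Slc25a22, Slc25a39 and Slc25a40 separate LTKO from HFD arrays.

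The core carriers of energy exchange were not called in any comparison. Slc25a5 encodes ANT2, a widely expressed ADP/ATP carrier, and Slc25a3 the phosphate carrier; both are needed for oxidative phosphorylation. Slc25a5 was at 10.19 and 10.31 in LTKO FST288 livers, 10.33 and 10.31 in LTKO GFP livers, 10.44, 10.25 and 10.38 in HFD FST288 livers, and 10.29, 10.34 and 10.35 in HFD GFP livers. Its change in LTKO livers was -0.11 ± 0.07 with FST288 (95% interval -0.26 to 0.05) and -0.00 ± 0.07 with GFP (-0.16 to 0.15), and with FST288 in HFD livers 0.03 ± 0.07 (-0.11 to 0.17). Slc25a3 averaged 7.84 ± 0.03 in LTKO FST288, 8.08 ± 0.07 in LTKO GFP, 7.97 ± 0.06 in HFD FST288 and 7.88 ± 0.02 in HFD GFP livers and was not called, with changes in LTKO livers of -0.12 ± 0.08, adjusted p = 0.478 with FST288 and 0.20 ± 0.08, adjusted p = 0.141 with GFP. The muscle form ANT1, Slc25a4, averaged 4.28 ± 0.03 in LTKO FST288, 3.94 ± 0.13 in LTKO GFP, 3.91 ± 0.07 in HFD FST288 and 3.90 ± 0.07 in HFD GFP livers and was not called (LTKO over HFD 0.36 ± 0.13, adjusted p = 0.112 with FST288 and 0.04 ± 0.13, adjusted p = 0.911 with GFP). The germ cell form Slc25a31 averaged 2.08 ± 0.06 in LTKO FST288, 2.20 ± 0.16 in LTKO GFP, 2.27 ± 0.12 in HFD FST288 and 2.14 ± 0.08 in HFD GFP livers, below the array medians.

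The ATP-Mg/phosphate carriers, most of them activated by calcium, load the matrix with ATP in exchange for phosphate and held 3 called members. Slc25a23, the form of liver, was at 8.43 and 8.34 in LTKO FST288 livers, 8.70 and 9.03 in LTKO GFP livers, 8.80, 8.75 and 8.73 in HFD FST288 livers, and 8.90, 9.08 and 8.93 in HFD GFP livers. It was lower in LTKO than HFD livers with FST288 (-0.38 ± 0.10, adjusted p = 0.0273), a call lost on omission of replicate 1, 2 or 3 of HFD FST288 or replicate 1 or 2 of LTKO FST288 (log2 change -0.42 to -0.33, adjusted p from 0.0593 to 0.167). It was -0.42, adjusted p = 0.198 without both acinar-high arrays. With GFP the change was -0.10 ± 0.10, adjusted p = 0.587. FST288 changed it by -0.48 ± 0.11 in LTKO livers (adjusted p = 0.149). Without LTKO GFP replicate 1 this became -0.65, where replicate 2 alone stood for LTKO GFP. Slc25a25, a paralog, was at 7.38 and 8.15 in LTKO FST288 livers, 6.56 and 7.26 in LTKO GFP livers, 7.16, 6.89 and 7.10 in HFD FST288 livers, and 6.92, 7.05 and 6.96 in HFD GFP livers. LTKO FST288 replicate 2, the array with the highest Kupffer cell markers, had the highest value, 8.15. In LTKO livers with FST288 it was higher than in HFD livers by 0.71 ± 0.21, adjusted p = 0.0499, and with FST288 over GFP by 0.85 ± 0.23, adjusted p = 0.237, which was not called. The first call was lost on omission of replicate 1, 2 or 3 of HFD GFP, replicate 1, 2 or 3 of HFD FST288 or replicate 2 of LTKO FST288 (log2 change 0.33 to 0.77, adjusted p from 0.0695 to 0.501), with its lowest value on omission of LTKO FST288 replicate 2, and was 0.60, adjusted p = 0.439 without both acinar-high arrays. Without LTKO FST288 replicate 1 the change with FST288 over GFP was 1.24, where replicate 2 alone stood for LTKO FST288. The summed level of the 7 Kupffer cell markers was 43.5 to 51.3 in LTKO FST288, 40.7 to 41.5 in LTKO GFP, 38.9 to 40.3 in HFD FST288 and 38.4 to 42.3 in HFD GFP livers. Their part in the Slc25a25 values was not tested. Slc25a41, whose product lacks the calcium-binding part, was at 2.06 and 2.31 in LTKO FST288 livers, 2.63 and 2.54 in LTKO GFP livers, 2.29, 2.30 and 2.38 in HFD FST288 livers, and 1.95, 2.06 and 2.29 in HFD GFP livers, with a mean below the array medians. It was called higher in LTKO than HFD livers with GFP (0.49 ± 0.14, adjusted p = 0.0338) and lost on omission of replicate 1 or 2 of HFD GFP or replicate 1 or 2 of LTKO GFP (log2 change 0.42 to 0.54, adjusted p from 0.0854 to 0.175), and without both acinar-high arrays (0.49, adjusted p = 0.0647). Slc25a24 averaged 2.80 ± 0.26 in LTKO FST288, 2.69 ± 0.13 in LTKO GFP, 2.87 ± 0.21 in HFD FST288 and 2.78 ± 0.16 in HFD GFP livers and was not called.

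Of the 9 carriers with no settled substrate, Slc25a46 alone was called. Its product sits in the outer membrane and takes part in mitochondrial fission. It was at 8.71 and 8.64 in LTKO FST288 livers, 8.88 and 8.63 in LTKO GFP livers, 8.36, 8.38 and 8.45 in HFD FST288 livers, and 8.30, 8.31 and 8.40 in HFD GFP livers and was 1.33-fold higher with LTKO than with HFD under GFP (0.41 ± 0.09, adjusted p = 0.00714), which was lost on omission of replicate 1 of LTKO GFP (log2 change 0.29, adjusted p = 0.0977). With FST288 the change was 0.28 ± 0.09, adjusted p = 0.0691. That value was called without LTKO GFP replicate 1 or replicate 2. Slc25a47, a carrier found mainly in liver, was at 9.47 and 9.89 in LTKO FST288 livers, 9.69 and 9.61 in LTKO GFP livers, 9.34, 9.59 and 9.30 in HFD FST288 livers, and 9.50, 9.67 and 9.56 in HFD GFP livers. Its groups overlapped in LTKO against HFD livers with GFP, where the change was 0.07 ± 0.12 with a 95% interval of -0.18 to 0.33. Slc25a48 averaged 5.43 ± 0.01 in LTKO FST288, 5.08 ± 0.36 in LTKO GFP, 4.93 ± 0.12 in HFD FST288 and 5.15 ± 0.12 in HFD GFP livers and was not called (LTKO over HFD with FST288 0.50 ± 0.15, adjusted p = 0.058). Slc25a45 and Slc25a34 gave no call, and Slc25a35, Slc25a43, Slc25a53 and Slc25a54 had means below the array medians.

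Both comparisons of LTKO with HFD livers use different arrays, so their agreement can be read across the family. Of the 45 carriers, 28 changed in the same direction with FST288 and with GFP (62.2%, against 59.6% of all named genes), and the changes had a Pearson r of 0.63 across carriers (0.64 across all genes), as a description over genes that are not independent. Slc25a10, Slc25a22, Slc25a33, Slc25a39 and Slc25a42 were called higher in both, and Slc25a1, Slc25a17, Slc25a21 and Slc25a51 lower in both. They are 9 of the 17 called with GFP and 9 of the 12 called with FST288. The share of all named genes called in both was not counted, so these counts are not read as a trait of the family. Among the carriers called with GFP and not with FST288, Slc25a30 had the largest change, the same difference between backgrounds as described above. The FST288 effects in LTKO and HFD livers likewise share no array, and 20 of 45 carriers had the same direction in both (44.4%, against 46.2% of all genes). Their Pearson r was -0.14 across carriers and -0.08 across all genes.

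**Figure D3:**
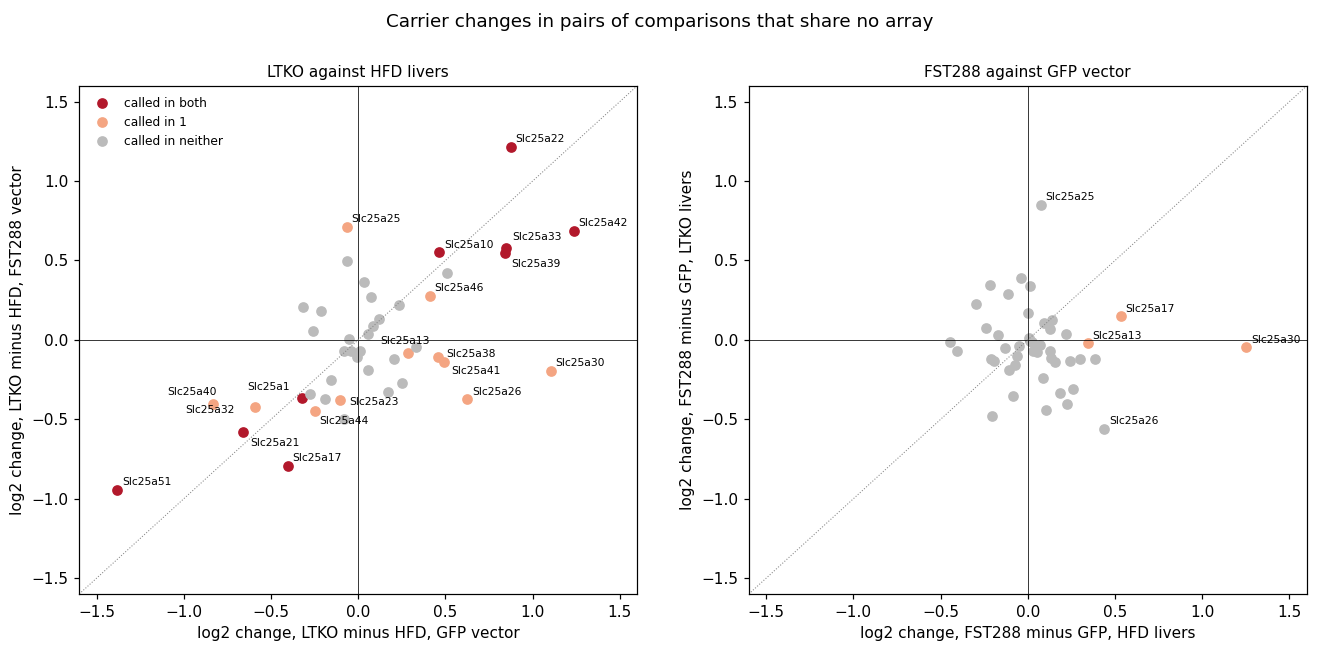
Log2 changes of the 45 carriers in 2 pairs of comparisons that share no array: LTKO against HFD livers with GFP (x) and FST288 (y) at the left, and FST288 against GFP in HFD (x) and LTKO livers (y) at the right. Dark red points were called in both, orange in 1 and grey in neither, and the dotted line marks equal changes. At the left 9 carriers were called in both and have the same sign on both axes; at the right Slc25a30 lies far along the x axis near 0 on the y axis.

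**Figure D4:**
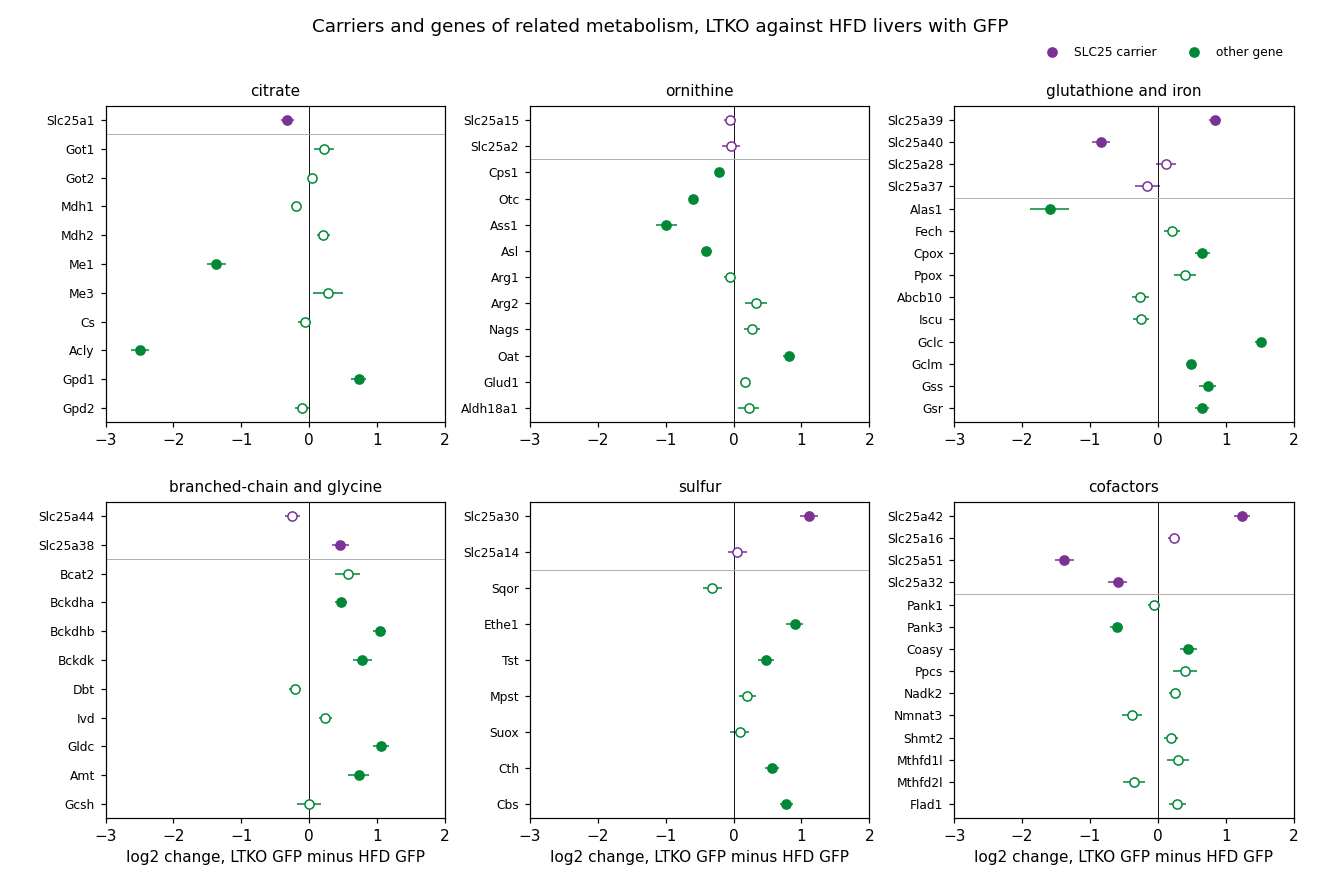
Log2 change in LTKO GFP against HFD GFP livers (x axis, with standard errors) for carriers (purple, above the line) and genes of related metabolism (green, below it), in 6 panels. Filled points were called. The ornithine panel shows open carriers above 4 enzymes that fell, and the glutathione panel shows Slc25a39 and Slc25a40 on opposite sides of 0.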

How the data were processed

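The table of log2 values was made and deposited by the authors with RMA in Affymetrix Expression Console, per the submitters' processing notes; versions and genome build are not given in the sources used here. Base 2 is inferred, since RMA gives it and values span 0.64 to 13.21. Of 41345 transcript clusters, 23521 had 1 symbol in the platform annotation, 1814 several and 16010 none listed; the brightest cluster by mean over all 10 arrays stood for each of 22180 genes. Members are the matching symbols, and 2 of the 47 symbols in the table of substrates had no cluster.

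All 10 arrays entered a limma 3.58.1 model (R 4.3.3) whose 4 coefficients are the group means, moderated by eBayes with an intensity trend (residual degrees of freedom 6, prior 7.15). There were 5 contrasts: FST288 over GFP in each background, their difference, and LTKO over HFD with each vector. Tests were two-sided with Benjamini-Hochberg adjustment over all genes. The procedure was tested on simulated data. The members, classes and lists were chosen with earlier results of these data known. Members called in any contrast are given on every array, and paralogs in fixed liver-relevant groups by group means; further members were named after their values were seen. Related lists are given by counts and called genes. The promoters shown were chosen among members with a called change of at least 1, and the CCAAT and GC boxes after their letters were seen. Alternatives left out each array, added the replicate number as a block, changed the moderation, weights, normalization, filter, features, arrays and threshold, and handled the 2 arrays with acinar transcripts by leaving them out or by a covariate.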

Additional observations from a re-analysis of the deposited data

Results flagged for a closer look

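Slc25a30 is listed because its response to FST288 differed between backgrounds by the interaction term of the fit. The FST288 effect differed by -1.30 ± 0.19 on the log2 scale (LTKO minus HFD, limma, adjusted p = 0.019). The effect was -0.05 ± 0.14 in LTKO livers and 1.25 ± 0.12 in HFD livers, and all 3 HFD FST288 arrays exceeded all 3 HFD GFP arrays. No group has the 4 arrays that a check for outlying samples needs.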

How the results depend on the processing

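Of the 33 called changes of single carriers, 13 stood whichever of the 10 arrays was omitted and in the 12 other alternatives, and none reversed. The 13 are Slc25a30 with FST288 in HFD livers; Slc25a22, Slc25a30, Slc25a33, Slc25a39, Slc25a40, Slc25a42 and Slc25a51 in LTKO over HFD livers with GFP; and Slc25a17, Slc25a22, Slc25a39, Slc25a42 and Slc25a51 with FST288. Calls lost numbered 16 with all transcript clusters tested, 15 with both acinar-high arrays left out, 10 with an acinar covariate, 10 without the intensity trend, 9 with the replicate block, 5 with the arrays of the contrast alone, 4 with quantile normalization, 3 with median centring, 2 with array weights, and 1 each with robust eBayes and with clusters averaged per gene. The causes were not tested.

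The 3 members called for FST288 in HFD livers became 1 with the replicate block, without the intensity trend, with quantile normalization, with all transcript clusters, with both acinar-high arrays left out and with the acinar covariate, and leaving out 1 array gave 1 to 3. In LTKO livers the 0 calls became 1 (Slc25a25) with the replicate block, and 0 to 1 leaving out 1 array. The 1 difference between backgrounds became 0 without the trend, with all clusters and with both acinar-high arrays left out, 2 at an adjusted p under 0.1, and 0 to 1 leaving out 1 array. In LTKO over HFD livers with GFP the 17 became 11 with all clusters and 8 to 17 leaving out 1 array. With FST288 the 12 became 5 with all clusters, with both acinar-high arrays left out and with the acinar covariate, 19 at an adjusted p under 0.1, and 7 to 14 leaving out 1 array. Over all named genes, the counts with FST288 ran from 6 to 411 in HFD livers (221 as reported) and from 0 to 237 in LTKO livers (37), their difference from 1 to 266 (48), and LTKO over HFD from 1870 to 3920 with GFP (2902) and from 939 to 3011 with FST288 (2293). Whether replicate numbers pair the arrays is not known. Same-numbered arrays had correlations of their deviations from the group mean between -0.07 and 0.01. With 2 or 3 arrays per group, these values cannot show whether the numbers pair arrays.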

Other observations

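Calls were also counted for relatives of the carriers outside the symbol rule and for the machinery that inserts carriers into the inner membrane. In LTKO over HFD livers, 10.3% of all named genes were called with FST288 and 13.1% with GFP, in either direction. The relative Ucp2 was listed and not measured. Of Ucp1, Ucp3, Mtch1 and Mtch2, which belong to the same protein family, Mtch1, an outer membrane relative, rose in LTKO GFP against HFD GFP livers (0.55 ± 0.14, adjusted p = 0.0174), and Mtch2, another, fell in LTKO livers with FST288 (-0.33 ± 0.08, adjusted p = 0.0141). Of 10 genes for carrier import, the receptor genes Tomm20 (0.61 ± 0.11, adjusted p = 0.00303) and Tomm70a (0.33 ± 0.09, adjusted p = 0.0365) rose in LTKO livers with FST288, and Tomm22 (0.49 ± 0.14, adjusted p = 0.0323) with GFP. Neither list held a call for FST288 over GFP in either background. Of 9 measured genes taken as markers of mitochondrial mass, Phb2, an inner membrane scaffold, rose with either vector (0.71 ± 0.10, adjusted p = 0.000264 with FST288 and 0.85 ± 0.10, adjusted p = 4.90e-05 with GFP). Vdac1, the outer membrane channel, fell (-0.56 ± 0.08, adjusted p = 0.000608 with FST288 and -0.41 ± 0.08, adjusted p = 0.00564 with GFP). Tomm20 is also in this list and rose with FST288. The list medians of the change were 0.07 with FST288 and 0.08 with GFP. The median level of the list per array was 8.34 to 8.43 in LTKO FST288 and 8.47 to 8.53 in LTKO GFP livers. It was 7.67 to 7.78 in HFD FST288 and 7.61 to 7.83 in HFD GFP livers. The part of mitochondrial mass in the carrier changes was not tested.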
